A study of Drosophila melanogaster with 12 samples.

Results

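The regions described here are the S9.6 peak regions on the 6 sequences of the dm3 assembly that hold mapped pericentromeric heterochromatin, 2LHet, 2RHet, 3LHet, 3RHet, XHet and YHet (Het regions). To obtain them, peaks from the 4 lists without RNH treatment were joined wherever they shared at least 1 bp, and a merged region was kept when its sequence name ended in Het. This rule used position only and gave 806 of 12155 regions, or 6.63%. The other regions were on the euchromatic arms of chromosomes 2 and 3, on chromosome 4 and on X (together the arms, 7721), on U (561), on Uextra (3066) and on a remaining sequence (1). U and Uextra collect scaffolds without a chromosomal position and were used only for comparison.

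DRIP-seq was performed in Drosophila S2 cells, an embryo-derived cell line. Control untreated cells, labelled WT, received no dsRNA, and dH1-depleted cells received 100 μg of dsRNA targeting dH1 on days 1, 4 and 7 of an 8 day culture, so that addition of dsRNA and depletion of dH1 cannot be told apart. In both conditions genomic DNA was treated with RNase A, sonicated to 500 to 1000 bp, left as it was or incubated with 6 U of RNase H (RNH), and precipitated with S9.6 antibodies. Each of the 2 biological replicates per condition gave an RNH-untreated list, an RNH-treated list and an input, for 8 peak lists in all, and the lists hold no measure of dH1 itself.

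An R-loop is a DNA:RNA hybrid with a displaced DNA strand. S9.6 antibodies bind the hybrid and RNH degrades its RNA strand, so that a peak lost after RNH treatment is sensitive to removal of hybrids. Pericentromeric heterochromatin of Drosophila is rich in transposable elements and satellite repeats and carries methylated H3K9 and HP1a, and dH1 is the somatic linker histone, which binds nucleosomes and contributes to silencing there. YHet and XHet are the mapped heterochromatin of the sex chromosomes, and 2LHet to 3RHet flank the centromeres of the large autosomes.

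Libraries differed in ways that touch every count below. The RNH-untreated list of dH1-depleted replicate 1 stood apart, since its peaks had a median width of 228 bp, in front of 1186.5 and 1162 bp in untreated cells and 1233 bp in dH1-depleted replicate 2. On Het sequences the same medians were 238, 1249, 1220.5 and 1380 bp. Read numbers are not in the lists, and depth is therefore unknown. The number of peaks in a list ranged from 3807 to 9368 without RNH, the 2 lists of dH1-depleted cells being the longest. Reads were kept at up to 10000 alignment sites, so that copies of a repeat share reads, peaks on them are not independent, and a peak on YHet or XHet does not place the origin of its reads there. No comparison of 2 libraries against 2 can give an exact permutation p below 0.33, and no comparison of 4 pairs can go below 0.13.

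Het regions were dense on the autosomes and sparse on the sex chromosomes. 2RHet held 291 of them, 3LHet 240, 3RHet 224 and 2LHet 43, whereas YHet held 5 and XHet 3. Per Mb of sequence up to the last peak, the density was 120 on 2LHet, 94.0 on 3LHet, 89.9 on 3RHet and 88.7 on 2RHet, in front of 17.8 on YHet and 15.8 on XHet. Over the same span, regions covered 14.1% of 2LHet, 11.1% of 3LHet, 10.9% of 3RHet, 10.0% of 2RHet, 3.19% of YHet and 1.14% of XHet. The typical autosomal Het region had another one nearby, since the median gap to the next region lay between 4008.5 and 4938.5 bp on the 4 autosomal sequences, while it was 36924 bp on YHet and 76083 bp on XHet.

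The width of Het regions was close to that of regions on the arms, with medians of 1057 and 1023 bp. The quartiles of the Het regions were 238.25 and 1534.5 bp, and 16 of them reached 5000 bp. The widest one was 3RHet:168058-178179 (10122 bp). On 2RHet the widest place was shared by 853168-861514 and 2085991-2094337 (8347 bp each), on 3LHet it was 1278882-1286730 (7849 bp), and on 2LHet it was 198229-203230 (5002 bp).

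More S9.6 peaks were called on Het sequences upon dH1 depletion, in both replicates, and on the 4 autosomal sequences in the lists as deposited. Untreated cells had 141 and 118 Het peaks in replicates 1 and 2, and dH1-depleted cells had 549 and 461. The conditions did not overlap. The mean difference was 1.96 on the log2 scale (3.90-fold; pooled SD 0.18, n = 2 libraries per condition; exact permutation test, 2-sided, p = 0.33, the smallest possible), and it was 1.96 within replicate 1 and 1.97 within replicate 2. With only the 3807 peaks of highest score kept in each list, the number in the shortest one, there were 134 and 118 Het peaks in front of 208 and 315, and the log2 difference was 1.03 (exact permutation test, p = 0.33). As a share of the list, Het peaks made up 3.51% (Wilson 95% interval 2.98 to 4.13) and 3.10% (2.59 to 3.70) in untreated cells, and 5.86% (5.40 to 6.35) and 8.34% (7.64 to 9.10) in dH1-depleted cells. These intervals cover counting error only.

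In base pairs the replicates went opposite ways. Het peaks covered 274548 and 223728 bp in untreated cells and 195268 and 794341 bp in dH1-depleted cells. The lowest and the highest value thus both belonged to dH1-depleted cells. The mean log2 difference was 0.67 (pooled SD 1.02; exact permutation test, p = 1), being -0.49 in replicate 1, where the list of narrow peaks stands, and 1.83 in replicate 2.

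By chromosome of origin, the 4 autosomal sequences had the same order of conditions in the full lists. 2RHet had 49 and 42 peaks in untreated cells and 176 and 171 in dH1-depleted cells. 3LHet had 40 and 35 in front of 179 and 137. 3RHet had 40 and 30 in front of 166 and 119. On the smaller 2LHet there were 8 and 7 peaks in untreated cells and 18 and 29 in dH1-depleted cells. All 4 sequences were therefore higher in both dH1-depleted libraries, but on 2LHet this order was lost when peaks of low score were left out. Their log2 differences (number + 0.5) were 1.92 on 2RHet, 2.05 on 3LHet, 2.00 on 3RHet and 1.55 on 2LHet (exact permutation test, p = 0.33 for each and 0.4 after Benjamini-Hochberg adjustment over the 6 sequences). With equal numbers of peaks, log2 of the number + 0.5 on 2LHet was 2.91 and 2.91 in untreated cells and 1.81 and 4.29 in dH1-depleted cells, and with a score of at least 100 it was 1.32 and 1.81 in front of 1.32 and 4.04 (exact permutation test, p = 1 for both), whereas the other 3 sequences kept the order in both settings.

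The sex chromosome sequences gave few peaks. YHet had 4 and 4 peaks in untreated cells and 8 and 4 in dH1-depleted cells, so that the conditions touched (log2 difference 0.46; exact permutation test, p = 1). XHet had 0 and 0 in front of 2 and 1. A count of 0 allows a share of up to 0.0747% and 0.0788% of the peaks of the respective untreated lists, and the XHet peaks of dH1-depleted cells made up 0.0213% and 0.0181% of theirs, so that no difference was detectable on XHet at this number of peaks. The plot of peaks by sequence shows these values.

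**Figure D1:**
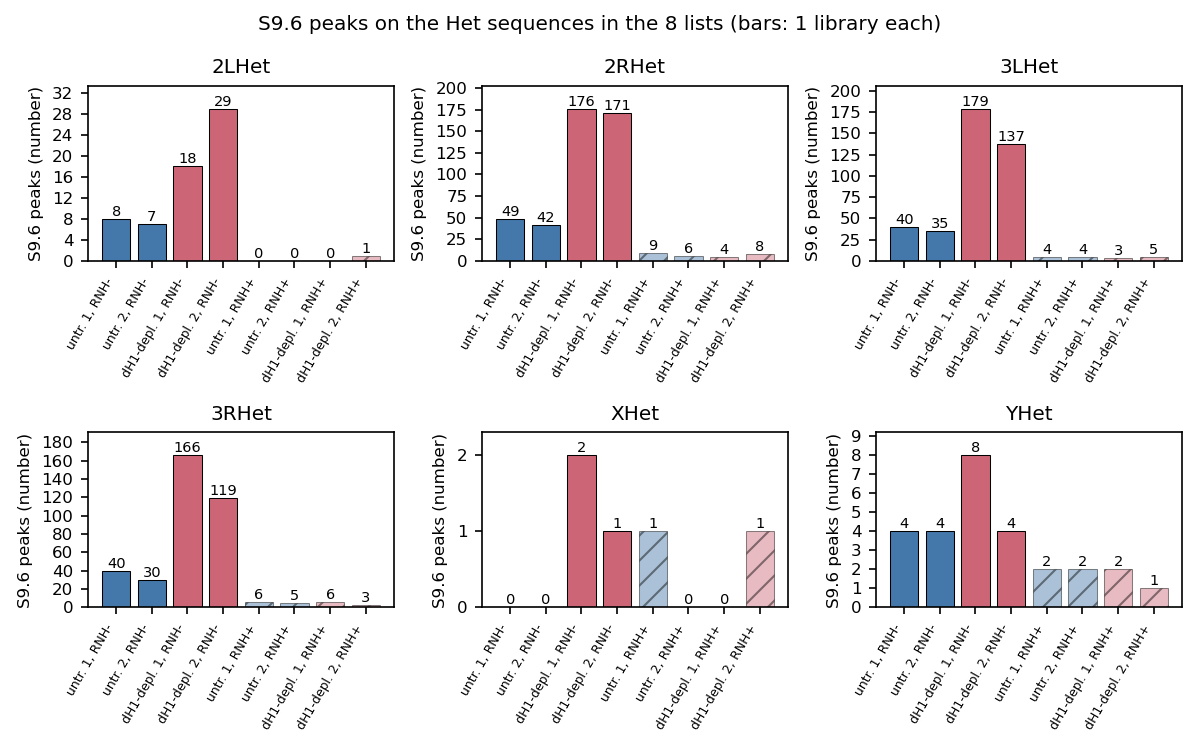
Number of S9.6 peaks on each Het sequence (vertical axis, own scale in each panel) in every library, for untreated and dH1-depleted cells with and without RNH treatment. Bars are single libraries, blue for untreated and red for dH1-depleted cells, hatched after RNH. Without RNH, both dH1-depleted libraries lie above both untreated ones on 2LHet, 2RHet, 3LHet and 3RHet, while on YHet the libraries have 4, 4, 8 and 4 peaks.

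To take the length of a list out of the comparison, Het peaks were set against the peaks on other parts of the assembly in the same list. The arms had 2624 and 2419 peaks in untreated cells and 5478 and 3295 in dH1-depleted cells. The log2 ratio of Het to arm peaks was -4.22 and -4.36 in untreated cells and -3.32 and -2.84 in dH1-depleted cells. It was higher in both dH1-depleted libraries, by 1.21 on average (2.31-fold; pooled SD 0.25; exact permutation test, p = 0.33), with 0.90 in replicate 1 and 1.52 in replicate 2.

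Ratios to the unplaced sequences had the same direction. The log2 ratio of Het to U peaks was -0.08 and -0.35 in untreated cells and 0.13 and 0.62 in dH1-depleted cells, a difference of 0.59 (exact permutation test, p = 0.33) that was 0.21 in replicate 1 and 0.97 in replicate 2. The log2 ratio of Het to Uextra peaks was -2.97 and -3.25 in front of -2.37 and -1.67, a difference of 1.09 (2.12-fold; exact permutation test, p = 0.33). In all 3 ratios dH1-depleted replicate 2 was the highest library. With equal numbers of peaks, dH1-depleted replicate 1 came below untreated replicate 1 in the ratio to U (-0.39 in front of -0.10; difference between conditions 0.25, exact permutation test, p = 1) and in the ratio to Uextra (-3.09 in front of -2.99; difference 0.65, exact permutation test, p = 0.67), and in base pairs in the ratio to U (0.0080 in front of 0.25; difference 0.24, exact permutation test, p = 0.67). The ratio to the arms kept both dH1-depleted libraries above both untreated ones in these settings.

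**Figure D2:**
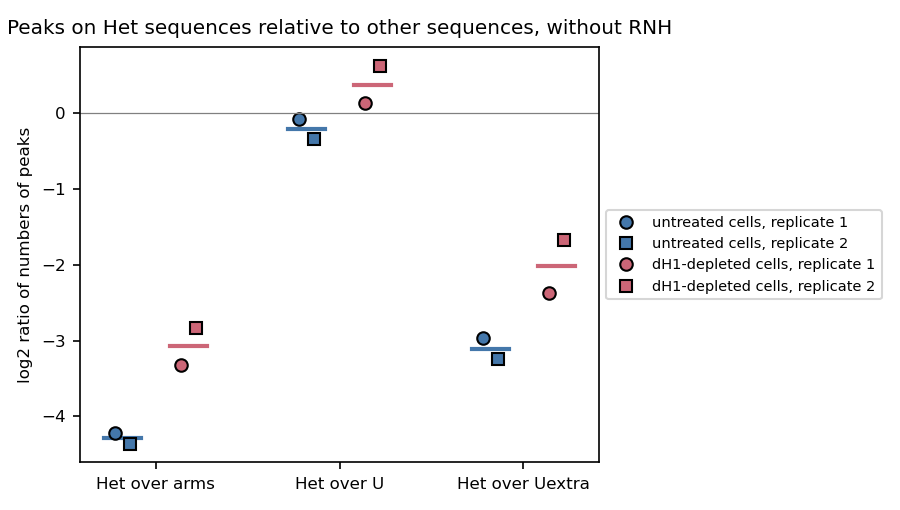
Log2 ratio of the number of Het peaks to the number of peaks on the chromosome arms, U and Uextra (vertical axis) in the 4 RNH-untreated lists. Circles and squares are replicates 1 and 2, lines are means, and in the full lists both dH1-depleted libraries lie above both untreated libraries in each of the 3 ratios.

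Few Het regions were called at the same position in all 4 lists, and replicates agreed less in dH1-depleted than in untreated cells. Only 43 of the 806 Het regions (5.33%) had a peak in all 4 RNH-untreated lists, where the share over all 12155 regions was 12.9% and that on the arms 9.11%. A peak in a single list was found at 595 Het regions (73.8%). Of these, 584 (72.5%) were called in 1 dH1-depleted library alone, in front of 56.8% of all regions, and 11 (1.36%) in 1 untreated library alone, in front of 4.8%.

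The 2 dH1-depleted libraries contributed differently to this group. Replicate 1 alone called 311 Het regions (38.6%, in front of 41.7% of all regions) with a median width of 211 bp. Replicate 2 alone called 273 (33.9%, in front of 15.1% of all regions and 14.2% on the arms) with a median width of 1244 bp. The share of Het regions that rested on replicate 1 was therefore near that of the whole assembly, and the share that rested on replicate 2 was above it. No test of this difference is possible with 1 library.

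Replicates shared more of their Het peaks in untreated than in dH1-depleted cells. In untreated cells, 91 of 141 Het peaks in replicate 1 (64.5%) had a counterpart in replicate 2, and 92 of 118 (78.0%) the other way around. In dH1-depleted cells, 209 of 549 (38.1%) and 128 of 461 (27.8%) did. On the arms, the same shares were 69.7% and 75.9% in untreated cells and 31.1% and 35.1% in dH1-depleted cells. Het peaks of untreated cells were found more often in dH1-depleted replicate 2 (78.7% and 82.2%) than in replicate 1 (53.9% and 53.4%).

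Narrow peaks also split regions that other libraries called as a single peak. The 43 Het regions called in all 4 lists held 44, 45 and 44 peaks in both untreated libraries and dH1-depleted replicate 2, in front of 100 peaks in dH1-depleted replicate 1, where 22 of them held more than 1 peak. In 3RHet:168058-178179 and 2RHet:2085991-2094337, dH1-depleted replicate 1 had 8 and 6 peaks.

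**Figure D3:**
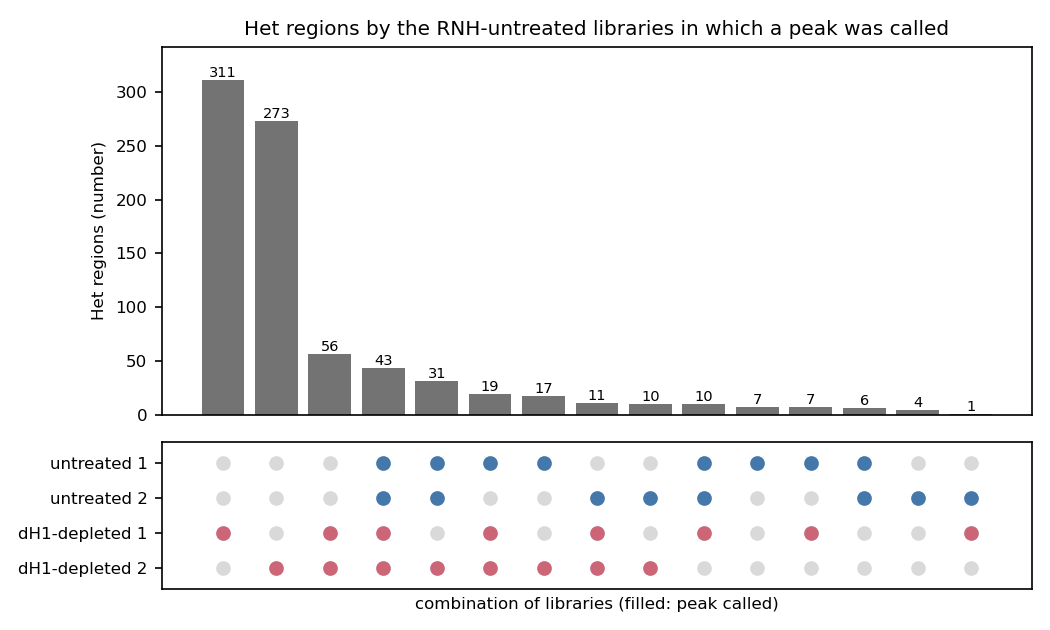
Number of Het regions (vertical axis) for each combination of RNH-untreated lists in which they were called, with the lists marked below the bars. The tallest bars are dH1-depleted replicate 1 alone (311) and dH1-depleted replicate 2 alone (273), followed by both dH1-depleted libraries (56) and all 4 lists (43).

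Regarding conditions, 640 Het regions (79.4%) had no peak in either untreated library, in front of 61.1% of all regions and 59.0% on the arms. No dH1-depleted library had a peak at 17 Het regions (2.11%), in front of 7.21% of all regions and 10.8% on the arms. On U this share was 1.78% and on Uextra 0.554%. Both untreated libraries called 90 Het regions (11.2%, in front of 24.5% of all regions and 23.3% on the arms). Both dH1-depleted libraries called 129 (16.0%, in front of 19.9% of all regions and 15.1% on the arms). Counted in both replicates, Het regions were thus less frequent than all regions in either condition. Against the arms they were less frequent in untreated cells and close in dH1-depleted cells.

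A region was called only in dH1-depleted cells when both dH1-depleted libraries, neither untreated library and no RNH-treated list of dH1-depleted cells had a peak there. This was the case for 52 Het regions (6.45%, Wilson 95% interval 4.95 to 8.36), in front of 3.97% of all regions. The interval takes regions as independent, although copies of a repeat share reads, and it does not cover differences between libraries. The share was 3.30% on the arms (255) and 6.60% on U (37), and on Uextra it was 138 of 3066 regions. The opposite pattern, called only in untreated cells, was found for 6 Het regions (0.744%), in front of 2.39% of all regions, 3.63% on the arms (280), 0.178% on U (1) and 0.0978% on Uextra (3). Het regions were thus close to U in both counts. The 52 were on 3LHet (24), 2RHet (14), 3RHet (13) and 2LHet (1), none being on XHet or YHet, and the 6 were on 2RHet (3) and 3LHet (3). With equal numbers of peaks, the first count became 7 and the second 19, so that the order turned. Without replicate 1 they were 359 and 20, and without replicate 2 they were 396 and 65. These alternative counts were made on Het sequences only. Whether all regions or those on the arms change in the same way was not tested.

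The score percentile is the rank of a peak by its MACS score within its own list, from 0 (lowest) to 100 (highest). A region has the percentile of its highest peak in a list. The 5 Het regions called only in dH1-depleted cells that ranked highest by the lower of their 2 percentiles are given here, in replicates 1 and 2. 3LHet:823942-825089 reached 77.5 and 79.3. 3RHet:153333-161412, which is 8080 bp wide and held 7 narrow peaks in replicate 1, reached 91.8 and 73.3. 3RHet:540781-542140 reached 88.5 and 63.9, 2RHet:2067308-2068978 reached 57.1 and 76.8, and 3LHet:1068817-1072746 reached 67.6 and 54.0. Their place in the upper part of both lists follows from this choice.

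Among the 6 Het regions called only in untreated cells, 3LHet:597198-598818 ranked highest, with percentiles of 84.6 and 70.3 in replicates 1 and 2. 3LHet:233283-234504 had 53.0 and 61.2. Of the next 3, 2RHet:786696-787902 had 27.6 and 27.2, 3LHet:2248241-2249312 had 38.3 and 15.3, and 2RHet:87374-88744 had 17.7 and 10.4, so that they were in the lower part of both lists.

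The scores of Het peaks were in the middle of each list. Their median percentile was 43.1 and 38.5 in untreated cells and 48.8 and 47.9 in dH1-depleted cells, a difference of 7.58 points (pooled SD 2.34; exact permutation test, p = 0.33), in front of 43.1, 42.7, 40.3 and 44.8 for the arms in the same order. Among peaks with a score of at least 100, this difference was -0.039. The median of Het peaks was below that of the arms in untreated replicate 2, nearly equal to it in untreated replicate 1 and above it in both dH1-depleted libraries. It was below those of U (55.8 to 64.4) and Uextra (61.1 to 73.6) in every list. Over the 4 lists, Het peaks differed from arm peaks by 1.83 ± 5.35 points (SD, n = 4 lists; exact sign-flip test, 2-sided, p = 0.75).

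Regions found in more libraries had higher scores. The 43 Het regions called in all 4 lists had median percentiles of 68.7 and 54.0 in untreated cells and 78.5 and 89.7 in dH1-depleted cells. The 56 called in both dH1-depleted libraries only had 48.0 and 41.0 there. Those called in dH1-depleted replicate 1 alone had 40.4 and those in replicate 2 alone 38.1. A high peak is more easily called in several lists. The value of a region is that of its highest peak, and the 43 held 100 peaks in dH1-depleted replicate 1. These medians are therefore given as a description.

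Some Het peaks were nevertheless among the highest of the whole list. The highest Het peak ranked 4th and 4th in untreated cells and 3rd and 11th in dH1-depleted cells. On 3RHet, 1598452-1600164 had percentiles of 99.6 and 99.5 in untreated cells and 99.9 and 99.5 in dH1-depleted cells. On 2RHet, 2085991-2094337 had 99.7 and 99.7 in front of 97.9 and 97.1. On 3LHet, 1121372-1128375 had 98.3 and 95.3 in front of 96.8 and 98.3. These 3 regions were thus near the top in all 4 lists.

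In contrast, the best region of 2LHet called in all 4 lists, 255284-257324, was low, with 5.89 and 15.4 in untreated cells and 33.1 and 31.9 in dH1-depleted cells. The widest Het region, 3RHet:168058-178179, had percentiles of 52.8 and 29.2 in untreated cells and 96.3 and 89.7 in dH1-depleted cells. In 2RHet:853168-861514 they were 46.2 and 89.1 in front of 96.4 and 93.6. In both wide regions the 2 dH1-depleted libraries were higher than the 2 untreated ones. However, dH1-depleted replicate 1 had 8 and 5 peaks there and its value is the highest of them, whereas each other library had 1. 3LHet:1278882-1286730 had a peak in 1 untreated library (47.7) and in both dH1-depleted ones (81.5 and 59.5), and 2LHet:198229-203230 in dH1-depleted replicate 2 only (81.1).

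**Figure D4:**
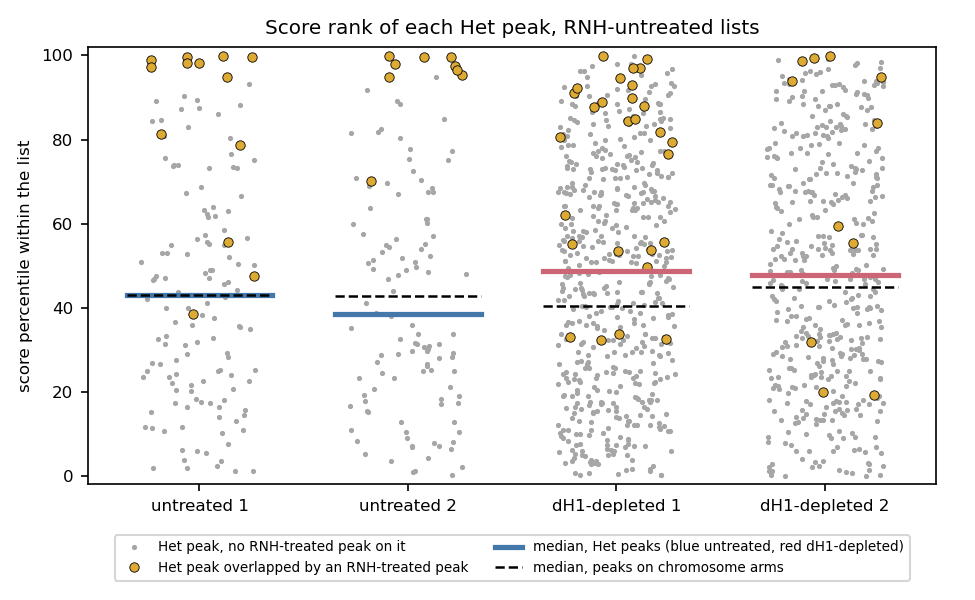
Within-list score percentile (vertical axis, 0 lowest and 100 highest) of every Het peak in the 4 RNH-untreated lists, with peaks overlapped by an RNH-treated peak of the same replicate as large points, the median of Het peaks as a solid line and that of arm peaks as a dashed line. The medians of Het peaks are 43.1 and 38.5 in untreated cells and 48.8 and 47.9 in dH1-depleted cells, and the large points gather near the top.

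Most Het peaks were not called after RNH treatment. The RNH-treated lists had 22 and 17 Het peaks in untreated cells and 15 and 19 in dH1-depleted cells, so that the conditions overlapped after RNH. Compared to the RNH-untreated library of the same replicate, this was 6.41-fold and 6.94-fold fewer in untreated cells and 36.6-fold and 24.3-fold in dH1-depleted cells. However, 9 of the 22 and 8 of the 17 in untreated cells lay on no peak of that RNH-untreated library. In dH1-depleted cells 1 of the 15 and 8 of the 19 did so. The folds therefore compare numbers of peaks, not peaks that stayed. On the log2 scale (number + 0.5) the mean ratio came to -3.78 ± 1.26 (SD over 4 pairs; p = 0.13 by the exact sign-flip test, the smallest possible), and it was lower in both dH1-depleted pairs (difference -2.15, pooled SD 0.30; exact permutation test, p = 0.33). The narrow peaks of dH1-depleted replicate 1 weigh less in base pairs. There the loss was 2.80-fold and 3.30-fold in untreated cells and 4.05-fold and 12.3-fold in dH1-depleted cells. The mean log2 ratio was -2.21 (exact sign-flip test, p = 0.13) and the difference between conditions -1.22 (exact permutation test, p = 0.33). A lower log2 ratio of peak numbers in dH1-depleted cells was also found on U and Uextra, and on the arms in replicate 1 only. On U it was -0.72 and -1.01 in untreated cells and -3.47 and -2.93 in dH1-depleted cells. On Uextra it was -0.48 and -0.61 in front of -3.15 and -1.85.

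The arms lost more peaks than the Het sequences in 3 of the 4 pairs. Arm peaks were 26.2-fold and 31.8-fold fewer after RNH in untreated cells, 87.0-fold in dH1-depleted replicate 1 and 8.79-fold in dH1-depleted replicate 2. The Het log2 ratio exceeded that of the arms by 2.05, 2.22 and 1.28 in the first 3 pairs and fell below it in dH1-depleted replicate 2 (difference -1.43). The mean difference of 1.03 ± 1.69 (SD, n = 4 pairs) gave p = 0.38 by the exact sign-flip test. Without dH1-depleted replicate 2, the only pair of opposite sign, the mean came to 1.85 ± 0.50 (n = 3). The remaining pairs share a sign by this choice, so their sign-flip p is fixed at its smallest value, 0.25, and decides nothing.

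Position by position, RNH-treated peaks overlapped 13 of 141 (9.22%) and 9 of 118 (7.63%) Het peaks of untreated cells, and 28 of 549 (5.10%) and 11 of 461 (2.39%) of dH1-depleted cells. The share was lower in both dH1-depleted libraries, with a difference of -4.68 points (exact permutation test, p = 0.33). The 28 peaks of dH1-depleted replicate 1 lay under 14 RNH-treated peaks. Among peaks with a score of at least 100, the shares were 19.2% and 18.2% in untreated cells and 4.89% and 2.18% in dH1-depleted cells, a difference of -15.2 points (exact permutation test, p = 0.33). Without a score limit, the share on the arms was 2.21% and 1.86%, and 1.88% and 3.64%. On U it was 24.8% and 19.3%, and 11.7% and 6.33%. On Uextra it was 47.6% and 44.0%, and 11.7% and 14.0%. The Het peaks that stayed were high before treatment, since their median percentile in the RNH-untreated list was 97.2 and 97.4 in untreated cells and 83.1 and 84.0 in dH1-depleted cells, in front of 39.9, 33.7, 47.4 and 47.6 for the other Het peaks. This difference was 48.3 ± 14.4 points (SD, n = 4 libraries, exact sign-flip test, p = 0.13) and had the same direction in 4 of 4 libraries. It was not particular to Het peaks. On the arms, overlapped peaks had 88.8, 87.4, 71.3 and 65.6 in the same order, in front of 42.4, 42.1, 39.9 and 44.3 for the others. The direction was the same in each library on U and Uextra.

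The Het peaks called after RNH were also high within their own lists, with median percentiles of 69.1 and 64.0 in untreated cells and 66.0 and 67.0 in dH1-depleted cells, in front of 27.8, 22.9, 61.0 and 40.8 on the arms. Het peaks were higher in each list, by 28.4 ± 17.1 points (SD, n = 4 lists; exact sign-flip test, p = 0.13). They were wider than without RNH, with medians of 5005.5 and 4917 bp in untreated cells and 2190 and 2617 bp in dH1-depleted cells. Arm peaks were also wider after RNH, with medians of 2763.5 and 2250.5 bp in untreated cells and 2998 and 2297 bp in dH1-depleted cells. Without RNH the arm medians were 1294, 1267, 221 and 1317 bp in the same order.

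In all, 46 Het regions (5.71%, in front of 11.3% of all regions and 3.90% on the arms) were under a peak of at least 1 RNH-treated list. They were on 2RHet (17), 3RHet (14), 3LHet (9), YHet (3), XHet (2) and 2LHet (1). Neighbouring regions could lie under the same RNH-treated peak, such as those between 66539 and 69421 of 3RHet. The counts here are therefore of regions, not of separate places. Of the 43 Het regions called in all 4 RNH-untreated lists, 13 were among the 46. An RNH-treated peak was found in 1 list for 25 of the 46, in 2 lists for 8 and in 3 lists for 9. In all 4 RNH-treated lists it was found for 4 Het regions (0.496%, in front of 1.66% of all regions).

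The 3 highest of these 4 included 2RHet:3199084-3200918, whose percentiles were 99.9 and 99.9 in untreated cells and 96.9 and 99.8 in dH1-depleted cells, and 99.7, 99.7, 99.5 and 99.3 in the same order after RNH. For 3RHet:1598452-1600164, the percentiles after RNH were 98.7, 97.8, 94.2 and 98.5. Both regions were thus at the top of all 8 lists. 2RHet:1328746-1330903 differed, since without RNH it had a peak only in dH1-depleted cells (99.2 and 55.4), whereas after RNH it had a peak in untreated cells (98.8 and 97.6) as well as in dH1-depleted cells (98.1 and 96.6).

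Other high Het regions were lost after RNH in some lists or in all. 2RHet:2085991-2094337 kept a peak in both untreated cell lists (99.3 and 99.2) and in neither list of dH1-depleted cells. 3LHet:1121372-1128375 did so with low percentiles, 32.2 and 14.0. No RNH-treated list had a peak at the wide regions 3RHet:168058-178179 and 2RHet:853168-861514.

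**Figure D5:**
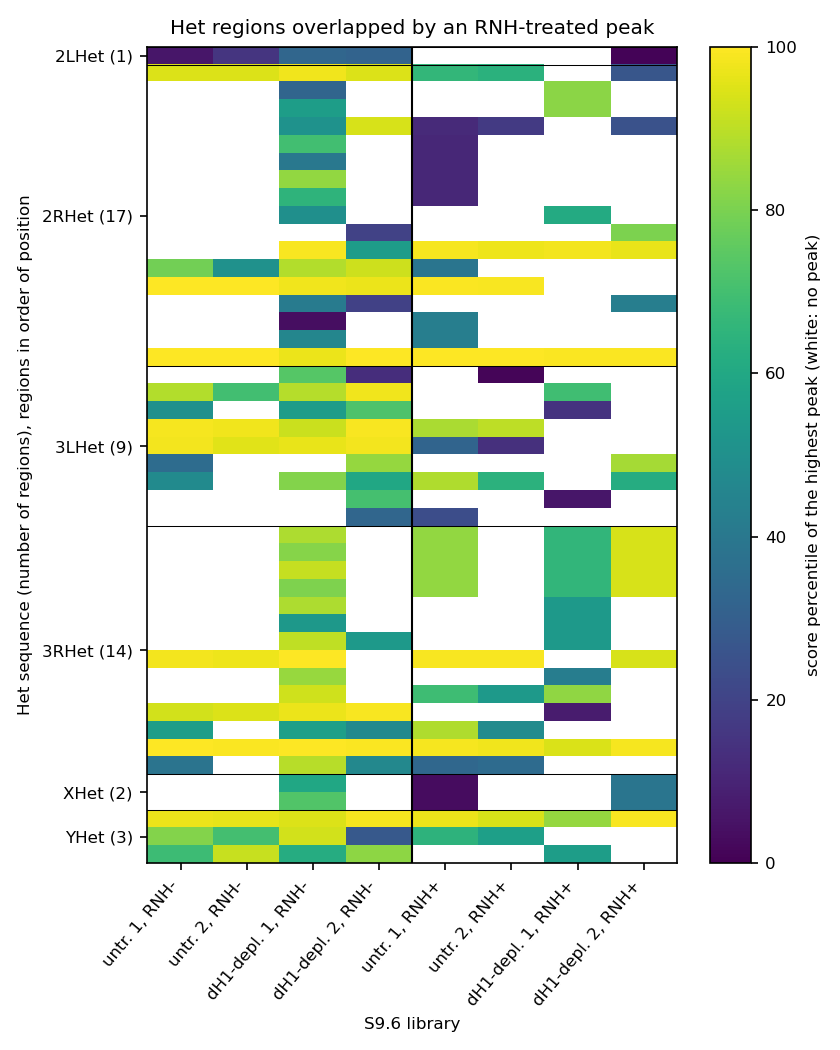
Within-list score percentile (colour) of the highest peak in each of the 46 Het regions under a peak of an RNH-treated list, in rows, over the 8 lists, in columns. Blank cells have no peak, and 4 regions have a peak in all 4 RNH-treated lists.

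YHet, although small in number of regions, was called repeatedly. YHet:71592-76695 had a peak in all 8 lists, with percentiles of 97.2 and 96.4 in untreated cells and 94.7 and 98.6 in dH1-depleted cells, and 97.2, 94.1, 84.3 and 98.9 after RNH. It completes the 4 Het regions found in all RNH-treated lists. YHet:136869-137623 had 81.4 and 70.2 in front of 93.2 and 27.8, and after RNH it had a peak in untreated cells only (64.8 and 56.3). YHet:154273-156079 had 68.7 and 91.7 in front of 62.0 and 83.2, and after RNH a peak in dH1-depleted replicate 1 (55.5).

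YHet:280640-281644 had percentiles of 83.0, 81.5, 77.1 and 84.4 and no RNH-treated peak. Thus 4 of the 5 YHet regions were called in all 4 RNH-untreated lists, and the fifth, 133895-134206, in dH1-depleted replicate 1 only (77.4). The conditions overlapped in each of the 4.

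The 3 XHet regions had no peak in untreated cells without RNH. XHet:34995-35331 and XHet:40895-41141 were narrow peaks of dH1-depleted replicate 1 (59.7 and 73.0), and XHet:187745-189323 was called in dH1-depleted replicate 2 (42.2), so that no XHet region was called in both replicates. The first 2 lay under a single wide RNH-treated peak in untreated replicate 1, 34862-41404 with a percentile of 3.25, and in dH1-depleted replicate 2, 34914-41261 with 38.9. All positions are those of dm3, counted from 1.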

How the data were processed

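The authors aligned the reads to dm3 with Bowtie 0.12.5, allowing 2 mismatches in the seed and up to 10000 alignment sites per read, removed duplicates with sambamba 0.5.1 and called peaks with MACS 1.4, with each S9.6 library set against its own replicate's input and no pooling. The deposited lists give peak positions and a score, the negative log10 of the p-value times 10, with a minimum of 50 at the default threshold of 1e-05. Scores depend on depth, so ranks within a list were compared, except in the alternative with a score of at least 100. That limit was the same in all lists, RNH-treated ones included, and values under it depend on depth. All value columns were assigned to libraries from the labels.

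Peaks were merged and compared in Python 3.11.15 (pandas 2.3.3, SciPy 1.17.1, NumPy 2.4.6, matplotlib 3.10.9). Calculations were tested on simulated data. Overlap needed 1 bp. Numbers per library were compared by exact permutation tests between conditions and exact sign-flip tests over pairs of RNH-treated and RNH-untreated libraries, with a pseudocount of 0.5 for RNH ratios and single sequences. The regions to name were, on each sequence, the highest one called in all 4 RNH-untreated lists (by its lowest percentile) and the widest one, the 5 highest called only in each condition, the 3 highest in all 4 RNH-treated lists, and all of XHet and YHet. Regions and comparisons were chosen with earlier results of these data known. Alternatives were equal numbers of peaks, a score of at least 100, other overlap rules, base pairs, and leaving out each replicate. For the RNH ratio of Het against arm peaks, the pair of dH1-depleted replicate 2 was also left out alone. Coverage and differential binding need reads and were not analysed here.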

Additional observations from a re-analysis of the deposited data

Results flagged for a closer look

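A signal outside the compared regions was found at 5 places on Het sequences that had a peak in an RNH-treated list and in no RNH-untreated list. 2RHet:3006116-3011997 (5882 bp) had such a peak in 3 lists, with percentiles of 69.3 and 39.3 in untreated cells and 96.2 in dH1-depleted replicate 2. The other places, 2RHet:592290-594439, 3LHet:1450071-1451814, 3LHet:1594496-1595514 and 3LHet:2069560-2072176, had a peak in dH1-depleted replicate 2 only, with percentiles of 40.2, 66.3, 0.656 and 67.0.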

How the results depend on the processing

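Under the alternatives run, the mean differences between conditions in Het peaks (1.03 to 2.10), in their ratios to arm (0.90 to 1.62), U (0.21 to 0.97) and Uextra peaks (0.60 to 1.57) and in their loss after RNH kept their sign. The conditions overlapped with equal numbers of peaks in the ratios to U and Uextra, and in base pairs in the ratio to U. Het base pairs ranged from -0.49 (replicate 1) to 1.83 (replicate 2) when a replicate was left out, and the score percentile difference was -0.039 at a score of at least 100. The 52 Het regions called only in dH1-depleted cells became 20 at a score of at least 100, 7 with equal numbers of peaks, and 359 to 396 with 1 replicate. The 6 called only in untreated cells became 19 with equal numbers and 20 to 65 with 1 replicate. These alternatives were counted for Het regions only. Libraries of the same number did not deviate together (correlation -0.0244 over all regions), and with the replicate number as a block the difference in Het peaks remained 1.96 (exact sign-flip test, p = 0.5, the smallest possible). The ratios to U and Uextra in base pairs and the joining of widened narrow peaks within a list were chosen after seeing the data. Depth is unknown, and 2 libraries per condition limit every test.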

Other observations

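The following places were chosen after their values were seen. At the start of 2RHet, 1-759 had a peak in all 4 RNH-untreated lists, with percentiles of 94.9 and 94.8 in untreated cells and 98.0 and 94.9 in dH1-depleted cells, and after RNH in untreated cells (66.1 and 64.0) and dH1-depleted replicate 2 (26.9). Between 66539 and 69421 of 3RHet, dH1-depleted replicate 1 had 4 separate Het regions of 412 to 786 bp with percentiles of 80.7 to 91.2, and a single RNH-treated peak covered them in untreated replicate 1 (65928-70606), dH1-depleted replicate 1 (65427-70792) and dH1-depleted replicate 2 (66031-70531).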
